A study of Mus musculus with 14 samples.

Results

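The 7 tumours described here were the mouse glioblastomas called Type 2, chosen by the type written in their sample titles, out of 14 tumours in the series. Each came from a separate array of total RNA, and replicate numbers, given in accession order, name a tumour and pair nothing. The mice carried NG2-CreERTM, a tamoxifen-activated Cre recombinase under the promoter of Cspg4 (the gene of the NG2 proteoglycan), together with floxed Trp53 on both alleles, floxed Nf1 on 1 allele and the Rosa-lsl-tdTom reporter, on a mixed genetic background. Tamoxifen was given once by mouth to adults of 6 to 8 weeks, at 10 mg for each 20 g of weight, and the mice were kept until they showed symptoms. All 7 tumours share these alleles and this treatment, so their values show how tumours of 1 genotype vary and include no untreated or wild-type sample. Tumours 1 to 4 were run in batch 1 and tumours 5 to 7 in batch 2, and each batch lay on 1 chip. The question asked of the data was what these tumours share and along which genes and gene groups they differ from one another.

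NG2 marks oligodendrocyte progenitor cells, the dividing glial cells that make myelin-forming oligodendrocytes, and it is also made by pericytes on blood vessels. Progenitors depend on the transcription factors Olig1, Olig2 and Sox10 and divide in response to platelet-derived growth factor through the receptor Pdgfra. Floxed alleles are cut out only where Cre is active, and the frozen tissue also holds vessels, microglia and brain around the tumour. In such bulk tissue, fewer cells of a type and less RNA per cell cannot be told apart.

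Levels are normalized log2 bead signals, so a difference of 1 is a 2-fold difference in signal. Signals of different probes were not compared as amounts of RNA. A gene was analysed if its probe had a detection p under 0.05 on at least 3 of the 7 arrays, which held for 11012 of 18484 named genes. Levels that did not pass detection lay between 4.46 and 5.48 and stand for background, so a deviation from such a level understates the change. To set batch aside, each value was taken as its deviation from the mean of its batch, and the spread of a gene is the pooled within-batch standard deviation (SD, 5 degrees of freedom). With 3 tumours in batch 2, a single high tumour pulls the other members of its batch below 0, and deviations from means of 4 and of 3 tumours are not on an equal footing. The arrays had between 19681 and 20759 detected probes. Across all genes (not independent of one another) Pearson correlations were 0.928 to 0.953 in the 9 pairs of tumours from the same batch and 0.891 to 0.925 in the 12 pairs from different batches.

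The 7 tumours had a large expression programme in common. Of the 18484 named genes, 9107 (49.3%) were detected on all 7 arrays, and 6067 were detected on none. Most genes varied little. The median within-batch SD was 0.38, which is 1.30-fold, and 7630 genes (69.3%) had an SD under 0.5. The brightest probes belonged to ribosomal and translation genes (Rplp1, Rps2, Rpl41 and Eef1a1), cytoskeletal genes (Tuba1b, Tubb2b and Actb), the brain creatine kinase gene Ckb, the ATP synthase gene Atp5b, the RNA-binding protein gene Ybx1, Dbi, which encodes an acyl-CoA binding protein abundant in glia, and the ubiquitin pseudogene Ubb-ps. Their mean levels were 14.65 to 14.84. At the top of the scale spread is small for probes in general, with a median SD of 0.17 over the 54 genes of mean level 14 or more against 0.46 over the 2998 genes between 6 and 8, so a small SD of a bright probe says little about that gene. Among genes at or above the median level, the steadiest were Rbm42 (an RNA-binding protein), with levels of 11.02 to 11.22, Atp5b, Tuba1b, Dennd6a, the clathrin-uncoating kinase gene Gak, the LIM-domain partner gene Ldb1, Krba1 and the translation factor gene Eif3i. Second probes of Rbm42 and Dennd6a followed the first at r = -0.38 and 0.14, so the small deviations that remain in such genes were not shared between probes.

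Oligodendrocyte progenitor genes were detected in every tumour. All 15 genes of that list were detected on all 7 arrays, 0 of 15 had an SD of 1 or more (5.76% of all analysed genes did), and their median SD was 0.55. That median is above the 0.38 of all genes, so the list was detected throughout but its members varied more than a typical gene. Sox10, a transcription factor gene of the oligodendrocyte lineage, ranged from 13.59 to 14.26 with an SD of 0.10. Its mean level of 13.96 lay near the top of the scale, where spread is small for probes in general. Olig1 ranged from 12.76 to 14.46 and Olig2 from 8.12 to 9.51. Pdgfra was detected in every tumour, lowest in tumour 3 at 11.54, with a median of 12.61 and highest in tumour 2 at 13.29, although its second probe followed the first only at r = 0.22. Cspg4, whose promoter drove Cre, ranged from 8.87 in tumour 3 over a median of 9.55 to 10.80 in tumour 4. The Cspg4 probe reports the gene's own RNA and does not check where Cre was active. The proteoglycan gene Vcan had the largest spread of the list, with an SD of 0.80. The mean deviation of the 15 genes, called here the score of a list, had an SD of 0.22 over tumours, against a median of 0.47 over the 29 lists with at least 5 measured genes. The markers of the glial lineage were thus present in each of the 7 tumours. The Nf1 probe was detected on too few arrays to be analysed, and Mki67 and Trp53 were not analysed here.

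Other lists with little spread were p53 targets (score SD 0.11, 10 genes), endothelial genes (0.17, 13 genes), cholesterol synthesis (0.17, 9 genes), immediate early genes (0.18, 10 genes) and neural progenitor genes (0.19, 9 genes). A low score SD can come from members that move against one another. In the list of receptor tyrosine kinases (score SD 0.20, 15 genes) Met had an SD of 3.40 while the stem cell factor receptor gene Kit varied least. Microglia and macrophage genes had a score SD of 0.27 over 14 genes, with scores from -0.37 in tumour 2 to 0.39 in tumour 1. Egfr, the epidermal growth factor receptor gene, ranged from 6.10 in tumour 3 over a median of 7.74 to 8.76 in tumour 2 (SD 0.88), and its second probe followed at r = 0.84. Nes, the gene of the progenitor filament nestin, ranged from 8.77 to 10.13 and was highest in tumour 3.

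A minority of genes differed strongly between tumours. An SD of 1 or more was reached by 634 of the 11012 genes, or 5.76%, and an SD of 1.5 or more by 138. Of the 634 genes, 353 were detected on all 7 arrays by the probe that stood for the gene and 87 on only 3 or 4. Other probes of the same gene mostly deviated alike. Among the 634 genes, 201 had a second detected probe, the median correlation of the probe pairs over the 7 deviations was 0.98, and 180 pairs (89.6%) exceeded 0.8. For the 2136 such genes below the median SD the median correlation was 0.77. The principal components of the deviations held from 27.3% of the variance for the first to 14.3% for the fifth, so no component held most of it. Centring 7 tumours within their batches leaves only 5 components, so shares of this size are partly set by the design.

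**Figure D1:**
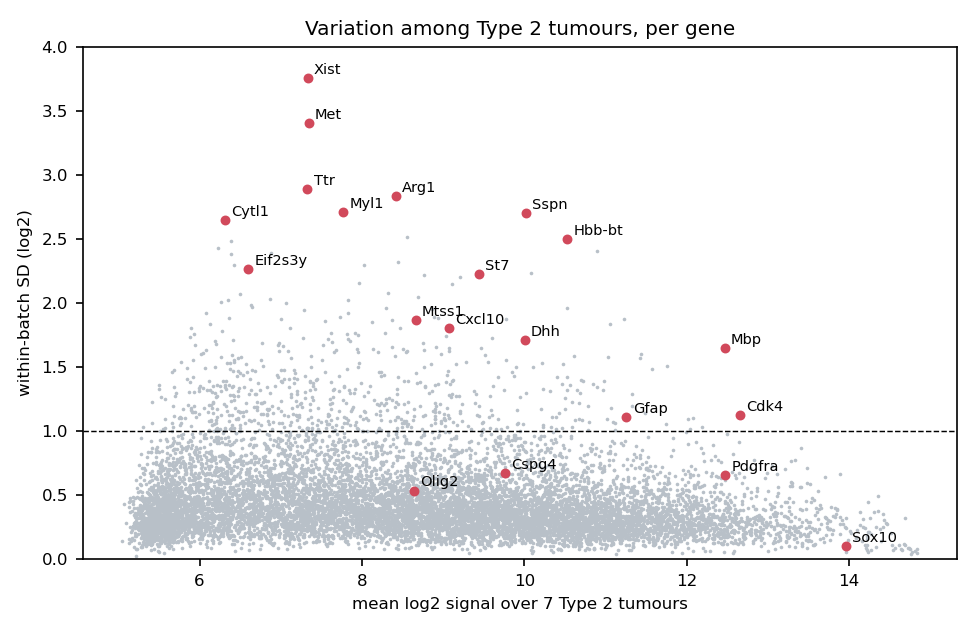
Within-batch SD (log2, y axis) of each of 11012 genes against its mean level over the 7 Type 2 tumours (log2 signal, x axis), 1 point per gene, with named genes in red and the dashed line at an SD of 1. Xist (3.76) and Met (3.40) lie highest, while the progenitor genes Sox10, Olig2, Cspg4 and Pdgfra lie below the line.

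Xist, the RNA that silences an X chromosome in female cells, had the largest spread (SD 3.76). It was bright in tumours 1, 2 and 5 (11.56, 10.87 and 10.74) and undetected in the other 4, at 4.48 to 4.61. Eif2s3y, a translation factor gene on the Y chromosome, was bright in tumours 3, 6 and 7, at 8.71 to 9.15. Tumour 4 had neither, with Xist at 4.53 and Eif2s3y at 5.33, both not detected. The sex of the mice is not given in the labels used here, and any part of it in other differences among the tumours was not tested.

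The other genes of large spread differed in which tumours were high. Ttr, the transthyretin gene of the choroid plexus, reached 13.71 in tumour 5 and 9.77 in tumour 7, against 4.69 to 7.84 in the rest. Arg1, the arginase gene known from alternatively activated macrophages, was high in tumours 1, 3, 5 and 7 (9.98, 9.05, 11.79 and 10.92), intermediate in tumour 2 (6.95) and undetected in tumours 4 and 6. Cytl1, which encodes a cytokine-like protein of cartilage, stood at 12.27 in tumour 4 and at most 7.84 elsewhere. Tfap2b, a transcription factor gene of the neural crest, and Tppp3, which encodes a tubulin-binding protein, were highest in tumour 3, at 11.88 and 11.12, with at most 7.30 and 7.81 in the other tumours. Myl1, a skeletal muscle myosin light chain gene, was highest in tumour 7 (11.78) and undetected in tumours 4 and 5. Hhipl2 went the other way, with 11.25 to 11.36 in tumours 2, 3 and 4 and no detected signal in tumour 1 (5.16). The blood globin genes Hbb-bt, Hbb-bs and Hba-a1 were low in tumour 5, at 5.21, 5.92 and 5.80, and at least 9.57 in every other tumour. The remaining genes among the 20 of largest spread were the milk casein gene Csn3 (highest in tumour 3, 9.70), Zfp385b (11.51, 10.59 and 9.92 in tumours 4, 6 and 1, at most 7.14 elsewhere), the cartilage gene Snorc (highest in tumours 6 and 4, at 10.60 and 10.21, with 8.96 and 8.91 in tumours 1 and 7), and Sspn, Cftr, Wnt2 and St7, which are described next with their chromosomal neighbours.

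**Figure D2:**
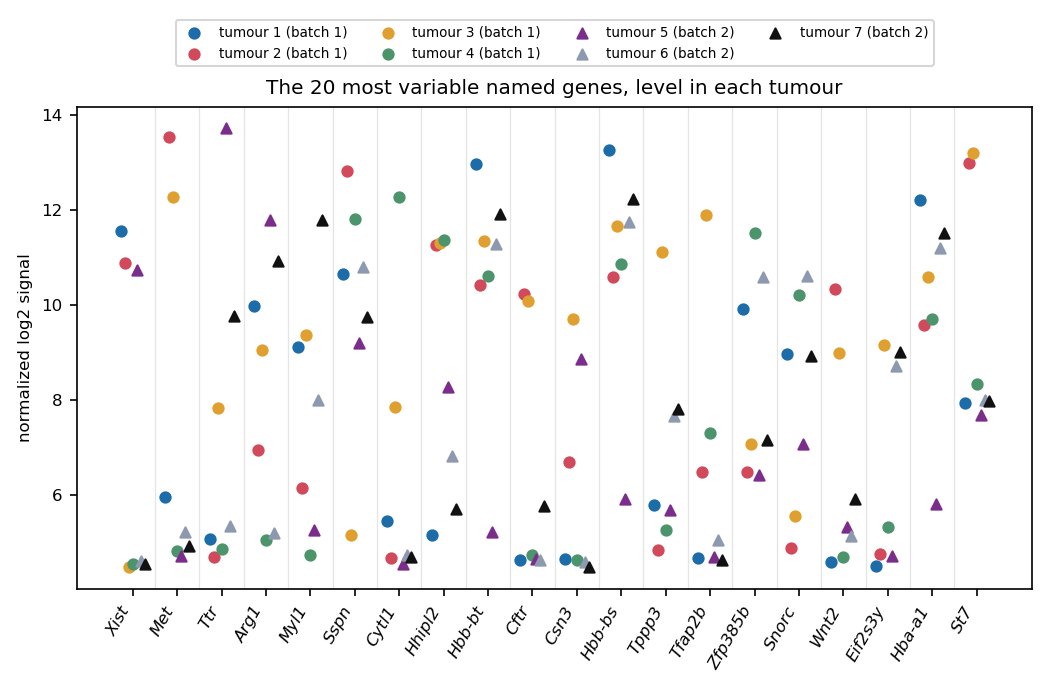
Normalized log2 signal (y axis) of the 20 named genes with the largest within-batch SD (x axis) in each of the 7 Type 2 tumours, circles for batch 1 and triangles for batch 2. Met and St7 are high in tumours 2 and 3 only, and the 3 globin genes are low in tumour 5.

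At a few loci, genes that lie side by side on a chromosome deviated together in 1 or 2 tumours. The scan for this was added after seeing that neighbours such as Met and Cftr varied alike. It used the gene order of the RefSeq assembly GRCm38.p6, since the files name no genome build, and took the median deviation in each window of 6 measured neighbours. Of 76251 windows over the 7 tumours, 129 (0.169%) had a median at least 1 from the batch mean, and they merged into 37 runs, 24 above and 13 below. The runs above the mean with at least 5 windows lay at 6 loci, which are given in the following paragraphs. The deviations themselves chose these runs, so the number of their genes past 1 is a description, and nothing is read from its size against the share of all genes printed beside it. DNA was not measured in these files.

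**Figure D3:**
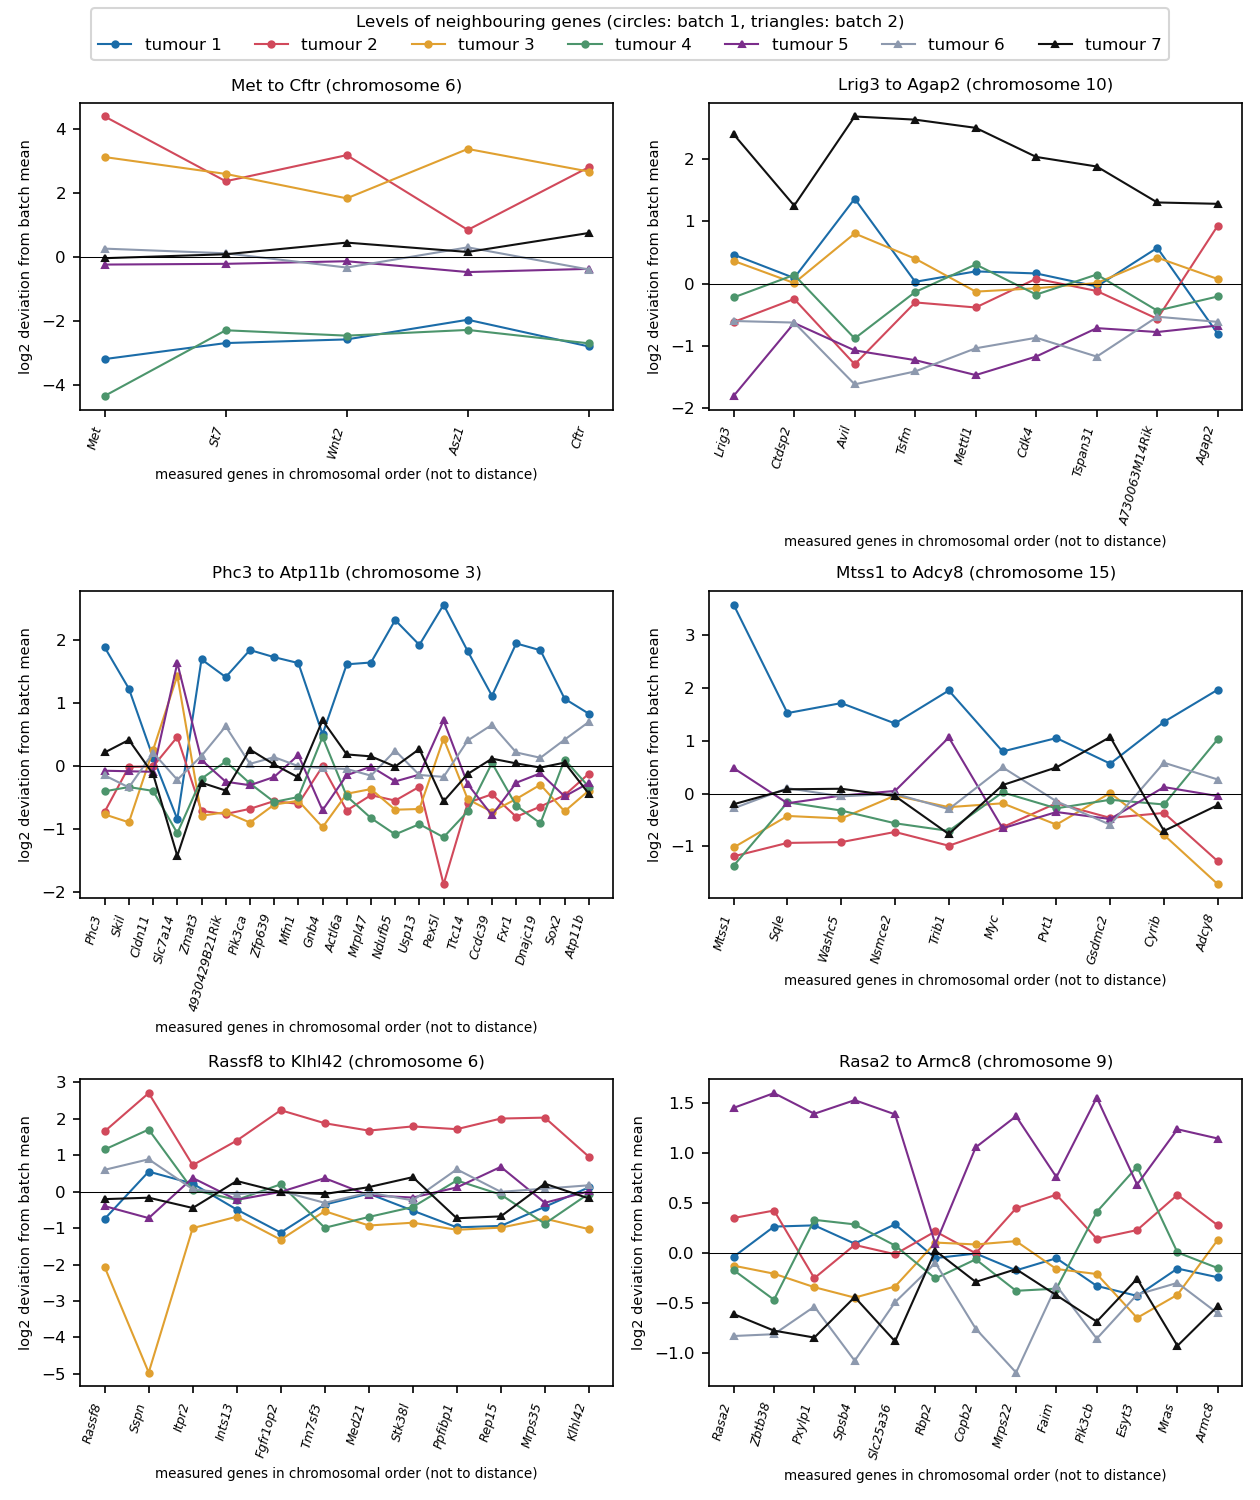
Deviation from the batch mean (log2, y axis) of the measured genes at 6 loci, in chromosomal order but not to distance (x axis), with 1 line per Type 2 tumour, circles for batch 1 and triangles for batch 2. In each panel 1 tumour, or tumours 2 and 3 at the Met locus, lies above the others over most of the run.

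On chromosome 6, the 5 measured genes from Met to Cftr were high in tumours 2 and 3. Met, the receptor for hepatocyte growth factor and a known oncogene, reached 13.53 in tumour 2 and 12.26 in tumour 3, against 5.96 in tumour 1 and no detected signal in the other 4 tumours (4.72 to 5.22). St7 was detected in all tumours, at 12.97 and 13.20 in tumours 2 and 3 and at 7.67 to 8.33 in the rest. Cftr, the chloride channel gene of epithelia, reached 10.22 and 10.08, and was at most 5.76 elsewhere. The ligand gene Wnt2 (10.33 and 8.98) and the germ cell gene Asz1 (8.32 and 10.84) were also higher in these tumours than in any other, where they reached at most 5.91 and 5.51. All 5 genes were at least 1 above the batch mean in tumour 3 and 4 of 5 in tumour 2 (of all genes, 2.84% and 2.66%). Tumours 2 and 3 did not overlap with the others at any of the 5 genes. The 6 flanking genes, among them Cav1, Cav2, Lsm8 and Kcnd2, had median deviations of -0.06 in tumour 2 and -0.14 in tumour 3. The ends Met and Cftr are those of the scan's run in tumour 3. In tumour 2 the scan's run reached further, over Lsm8 (0.21) to Kcnd2 (0.71).

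On chromosome 10, the genes from Lrig3 to Agap2 were high in tumour 7. All 9 measured genes of the run were at least 1 above the batch mean in that tumour (of all genes, 1.39%), with a median deviation of 2.03. Cdk4, the kinase that starts the G1 to S step of the cell cycle, was 14.58 in tumour 7 and between 11.38 and 12.89 in the other 6 tumours. Mettl1, a transfer RNA methyltransferase gene, was 12.40 against 8.14 to 8.87, and the tetraspanin gene Tspan31 was 11.35 against 8.30 to 8.83. Lrig3, a membrane protein gene, was 13.09 against 8.90 to 10.65. Tumour 7 was thus the highest of the 7 tumours at each of these 4 genes, without overlap. Second probes followed the first at r of 0.99 or more for Cdk4 and Mettl1 and at 0.98 for Lrig3. The next measured neighbours, among them Os9, had a median deviation of -0.21 in tumour 7. Cell cycle genes of a list that did not hold Cdk4 had their highest score in the same tumour (0.67, with 13 of 14 genes above the batch mean). The mean level of that list was 10.73 in tumour 7 and 9.74 and 9.71 in tumours 5 and 6. In batch 1 it was 10.08 to 10.61, so tumour 7 stood out mainly within its batch. A relation of this list to Cdk4 was not tested.

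Tumour 1 had runs of high genes on chromosomes 3 and 15. From Phc3 to Atp11b on chromosome 3, 17 of 21 measured genes were at least 1 above the batch mean in that tumour (of all genes, 2.26%), and the median deviation was 1.65. Pik3ca, the catalytic subunit of phosphoinositide 3-kinase alpha, was 10.02 in tumour 1 and 6.18 to 7.90 elsewhere. Sox2, a transcription factor gene of neural stem cells, was 11.79 against 9.54 to 10.82. Fxr1, an RNA-binding protein gene, was 10.46 against 6.92 to 7.99, and Zmat3, an RNA-binding p53 target, was 11.52 against 8.63 to 9.63. Cldn11, Slc7a14 and Gnb4, which lie inside the run, did not share its deviation. Cldn11, the tight junction gene of myelin, lay near the top of the scale in all tumours (13.98 to 14.74).

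From Mtss1 to Adcy8 on chromosome 15, 8 of 10 genes were at least 1 above the batch mean in tumour 1 (of all genes, 2.26%). The median deviation was 1.44. Mtss1, a membrane-curving protein gene, was 12.64 in tumour 1 and 7.70 to 8.61 in the rest. Sqle, the squalene epoxidase of cholesterol synthesis, was 14.22 against 11.34 to 12.53, while the other cholesterol genes kept the score of that list at 0.09 in tumour 1. Myc, the growth-promoting transcription factor gene, was 8.92 against 6.49 to 8.14, and its neighbour Pvt1, a long non-coding RNA, was 10.26 against 7.33 to 9.02. Tumour 1 was again the highest at each of these genes, but the gap was small for Myc, whose deviation of 0.80 stayed below 1.

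The Rassf8 to Klhl42 run on chromosome 6 was high in tumour 2 and partly low in tumour 3. In tumour 2, 10 of 12 genes were at least 1 above the batch mean (of all genes, 2.66%), with a median deviation of 1.75. Among them were Ppfibp1, a liprin gene, at 13.21 against 8.83 to 11.80, and Fgfr1op2 at 11.59 against 8.04 to 9.56. Sspn, which encodes sarcospan of the dystrophin complex, was 12.81 in tumour 2 and was not detected in tumour 3 (5.14), while the other 5 tumours had 9.19 to 11.81. The neighbouring Rassf8 was likewise undetected in tumour 3 alone (4.84 against 6.16 to 8.64). These are the 2 genes at 1 end of the run, and from Itpr2 on all genes were detected in tumour 3. Tumour 2 had further, shorter runs above the mean on the same chromosome, from Lpcat3 to Spsb2, from Mrpl51 to Tnfrsf1a and from Kcna6 to Ccnd2. Ccnd2, a cyclin gene, was 13.17 in tumour 2, but tumours 4 and 5 also had high Ccnd2 (12.06 and 12.79).

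On chromosome 9, 10 of 13 genes from Rasa2 to Armc8 were at least 1 above the batch mean in tumour 5 (of all genes, 2%), with a median deviation of 1.36. Pik3cb, the catalytic subunit of phosphoinositide 3-kinase beta, was 11.81 in tumour 5 and 9.40 to 10.15 elsewhere. Rasa2, a brake on Ras, was 11.16 against 8.88 to 10.09, and the Ras-family gene Mras was 13.58 against 11.41 to 12.84. Tumour 5 did not overlap with the others at these 3 genes. Zbtb38 differed between the batches in level, and its 7.85 in tumour 5 was within the range of batch 1.

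Whole chromosomes also shifted slightly. Over all measured genes of a chromosome the median deviation was at least 0.2 in size in 19 of 140 combinations of chromosome and tumour, 18 of them in batch 1 and 1 in batch 2, while the median size was 0.07. Chromosome 13 had a median of 0.39 in tumour 1, with 84.4% of its 379 genes above the batch mean, and of -0.33 in tumour 3. Chromosome 15 had a median of -0.41 in tumour 2, where 15.3% of its 457 genes were above the mean. Tumour 4 was low on chromosomes 10 (-0.34), 12 (-0.32) and 8 (-0.31). Tumours 5 and 7 had their highest medians on chromosomes 11 (0.20) and 1 (0.20), and tumour 6 its lowest on chromosome 2 (-0.15).

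**Figure D4:**
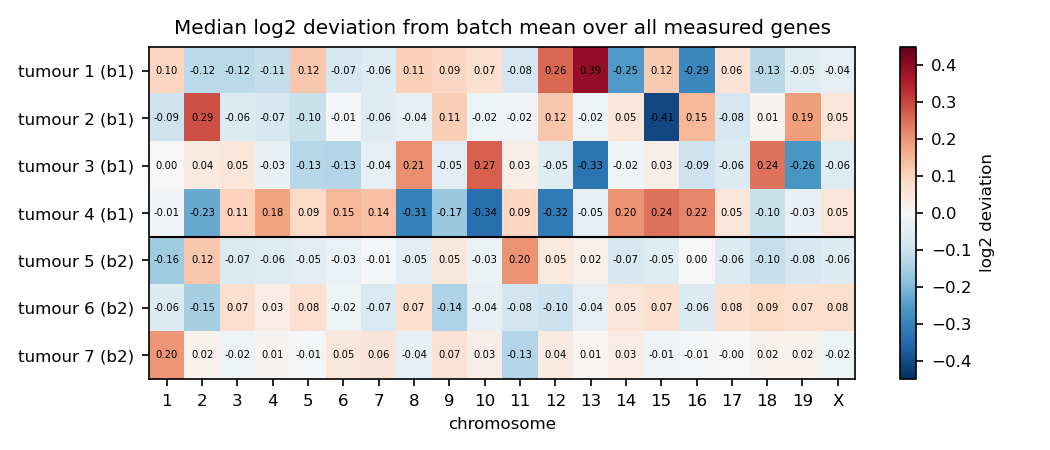
Median deviation from the batch mean (log2, colour and number) over the measured genes of each chromosome (x axis) in each Type 2 tumour (y axis), with batch 1 above the line and batch 2 below. Chromosome 13 in tumour 1 (0.39) and chromosome 15 in tumour 2 (-0.41) are the extremes.

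Among the 29 gene lists with at least 5 measured genes, the interferon response varied most between tumours (score SD 1.10). Of its 11 measured genes, 7 (63.6%) had an SD of 1 or more, against 5.76% of all genes. Interferons induce these genes through the factor complexes of STAT and IRF proteins that bind a repeated GAAA sequence. The letters GAAANNGAAA, searched on both strands, occurred in 3.99% of 27025 genes with a promoter window in RefSeq (250 bases before to 50 after the start), in 3.72% of the analysed genes with a window, and in 7 of the 10 list genes with one. The 4 windows below are a choice among those 7, of genes with an SD of 1 or more that include the most variable of the list, Cxcl10 and Gbp2. Irf7 (SD 1.34) varied more than Isg15 (1.17) or Ifit3 (1.14) and its window did not hold these letters. Capitals mark the match on either strand. They are from RefSeq on GRCm38.p6, 5′ to 3′, with Isg15 at chr4:156200769-156201068 on the minus strand, Ifit3 at chr19:34583279-34583578 on the plus strand, Gbp2 at chr3:142620413-142620712 on the plus strand and Cxcl10 at chr5:92348840-92349139 on the minus strand.
Isg15: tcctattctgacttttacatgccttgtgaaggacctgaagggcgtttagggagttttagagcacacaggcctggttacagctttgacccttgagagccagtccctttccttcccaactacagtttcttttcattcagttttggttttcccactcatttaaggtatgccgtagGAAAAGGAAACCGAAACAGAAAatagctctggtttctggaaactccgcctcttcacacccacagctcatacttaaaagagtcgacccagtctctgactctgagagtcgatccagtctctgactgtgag
Ifit3: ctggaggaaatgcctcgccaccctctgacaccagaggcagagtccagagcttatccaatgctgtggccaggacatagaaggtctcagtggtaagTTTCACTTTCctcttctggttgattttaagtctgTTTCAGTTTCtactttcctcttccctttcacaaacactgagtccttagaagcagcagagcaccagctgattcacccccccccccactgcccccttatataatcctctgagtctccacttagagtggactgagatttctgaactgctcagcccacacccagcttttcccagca
Gbp2: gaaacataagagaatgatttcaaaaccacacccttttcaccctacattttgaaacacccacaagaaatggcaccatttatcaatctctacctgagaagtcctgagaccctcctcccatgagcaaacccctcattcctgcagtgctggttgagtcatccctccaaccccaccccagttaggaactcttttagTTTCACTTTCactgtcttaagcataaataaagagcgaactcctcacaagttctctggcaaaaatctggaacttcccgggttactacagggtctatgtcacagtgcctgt
Cxcl10: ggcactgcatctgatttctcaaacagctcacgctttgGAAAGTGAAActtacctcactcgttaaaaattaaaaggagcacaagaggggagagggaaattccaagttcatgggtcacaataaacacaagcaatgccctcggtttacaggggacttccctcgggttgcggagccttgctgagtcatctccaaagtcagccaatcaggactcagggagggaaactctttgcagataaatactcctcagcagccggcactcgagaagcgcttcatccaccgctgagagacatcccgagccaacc

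A match is a description of letters and no evidence of binding. Cxcl10, a chemokine that draws T cells, was lowest in tumour 4 at 5.88, had a median of 8.94 and was highest in tumour 2 at 11.20. Gbp2, a guanylate-binding protein gene, had 8.64 in tumour 4, 13.08 in tumour 2 and 9.02 to 10.14 in batch 2. Isg15, the ubiquitin-like interferon gene, was 8.43 in tumour 4 and 8.68 in tumour 1, against 10.76 to 12.12 in the other 5. In batch 1 the list split cleanly: all 11 genes were above the batch mean in tumours 2 and 3, 1 of 11 in tumour 1 and 0 of 11 in tumour 4. The scores were 1.40 and 0.81 in tumours 2 and 3, -0.48 in tumour 1 and -1.73 in tumour 4. In batch 2 they lay between -0.40 and 0.23. Class I antigen presentation genes, which interferon also induces, had their highest score in tumour 2 (0.75, 9 of 10 genes above the mean) and their lowest in tumour 4 (-0.65, 1 of 10). Class II genes differed from this order, with the highest score in tumour 1 (0.79, 7 of 7) and the lowest in tumour 4 (-1.01, 1 of 7); Cd74, the class II chaperone gene, was 10.99 and 7.58 there.

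**Figure D5:**
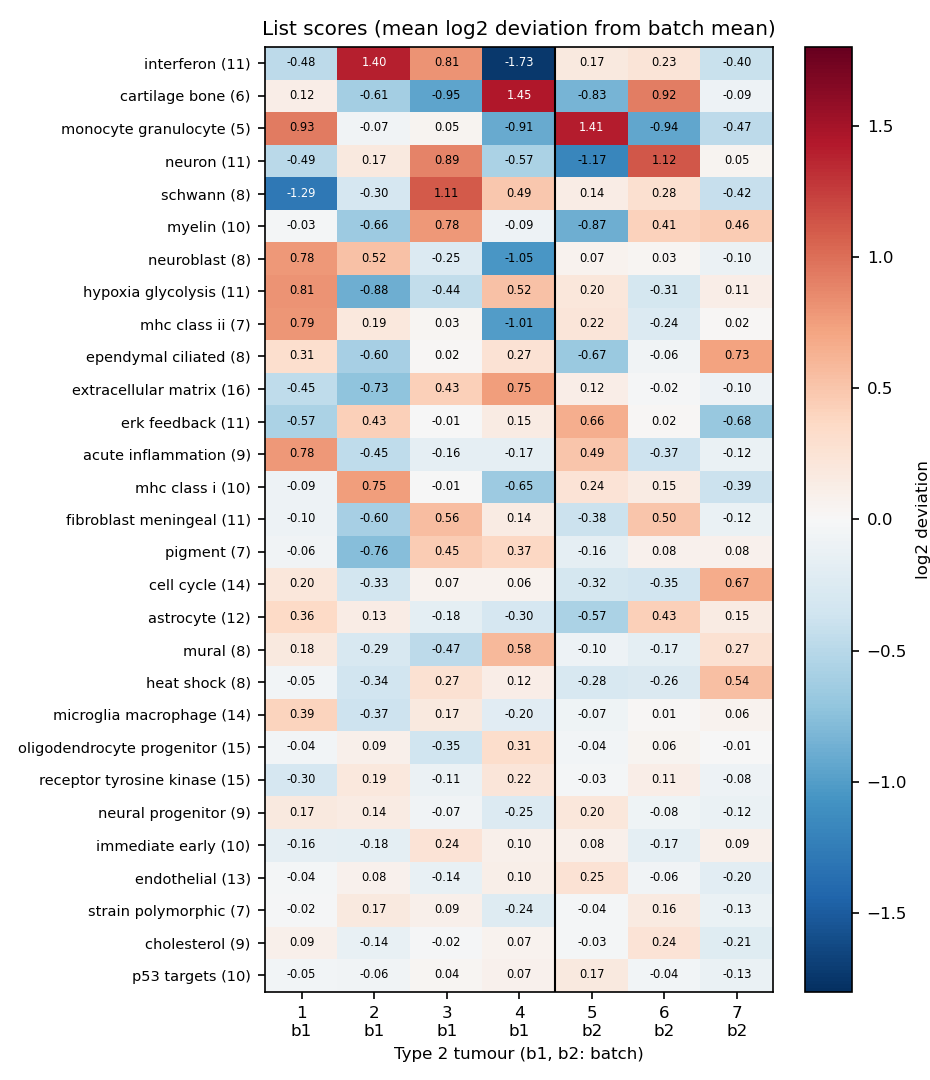
Score of each gene list, the mean log2 deviation from the batch mean over its measured genes (number of genes in brackets), in each Type 2 tumour, ordered from the largest to the smallest score SD, with a line between the batches. The interferon list spans -1.73 to 1.40, and p53 targets span -0.13 to 0.17.

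Cartilage and matrix genes set tumour 4 apart. The cartilage and bone list had a score of 1.45 in tumour 4 (6 of 6 genes above the batch mean) and 0.92 in tumour 6 (6 of 6), and -0.95 in tumour 3 (0 of 6). Col2a1, the main collagen of cartilage, was 11.07 in tumour 4, undetected in tumour 5 and 6.58 to 8.95 elsewhere. Acan, the aggrecan proteoglycan gene of cartilage and perineuronal nets, was 11.22 in tumour 4 and at most 8.50 elsewhere, and Hapln1, which links aggrecan to hyaluronan, was 10.10 and at most 7.73. Matn1, a cartilage matrilin gene, was instead highest in tumour 6 (10.81, against at most 7.56). Extracellular matrix genes as a whole had their highest score in tumour 4 (0.75, 13 of 16 genes). Tnc, the tenascin gene that was also in this list, did not follow it, being highest in tumour 3 (12.42) and lowest in tumour 6 (8.24). Fibroblast and meningeal genes scored 0.56 in tumour 3 and 0.14 in tumour 4, and their part in the cartilage and matrix values was not tested.

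Schwann cell genes and some pigment genes differed between tumours. The Schwann list had scores from -1.29 in tumour 1 (0 of 8 genes above the batch mean) to 1.11 in tumour 3 (8 of 8). Dhh, the hedgehog ligand of Schwann cells, was lowest in tumour 2 (8.06), had a median of 9.43 and was high in tumours 3 and 4 (12.53 and 11.74). Ngfr, the low-affinity neurotrophin receptor gene, was 10.01 in tumour 3 and at most 8.35 elsewhere. Pou3f1, a transcription factor gene of promyelinating Schwann cells, was 6.76 in tumour 1 and 9.69 to 12.10 elsewhere, and Ncmap, a membrane protein gene of peripheral myelin, was 10.99 in tumour 4 and at most 8.16 elsewhere. Tumour 3 was thus highest for Dhh and Ngfr, and tumour 4 for Ncmap. Dct, a melanin synthesis enzyme gene, was highest in tumour 3 (11.85) and lowest in tumour 2 (8.05), and Pmel, a melanosome gene, was highest in tumours 4 and 3 (12.02 and 11.28); second probes of both followed at r of 0.98 or more.

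Myelin genes of the oligodendrocyte had a score SD of 0.66 and were lowest in tumours 5 (-0.87, 1 of 10 genes above the mean) and 2 (-0.66, 1 of 10). Mbp, myelin basic protein, was 10.30 in both of these tumours and 12.57 to 14.17 in the other 5. Opalin, a protein of central myelin, was 5.57 and 6.48 there, but tumour 4 was also low (6.17), and tumour 7 was highest (10.31). Mature neuron genes had a score SD of 0.90. Against the batch mean they were high in tumours 6 (1.12, 10 of 11 genes) and 3 (0.89, 11 of 11) and low in tumour 5 (-1.17, 2 of 11). Tumour 5 was low only within its batch, where the mean level of the list was 7.58, 9.87 and 8.80 in tumours 5, 6 and 7. In tumours 1, 2 and 4 that level was below the one in tumour 5, at 6.77, 7.43 and 6.68. Slc17a7, the vesicular glutamate transporter gene of cortical neurons, was 9.52 in tumour 6, 7.75 in tumour 7 and 6.61 in tumour 3 and was not detected in the other 4. Rbfox3, the NeuN gene, was 11.54 in tumour 6 and 6.57 to 9.03 elsewhere. Cck, a neuropeptide gene, had 10.25 in tumour 6 and 9.18 in tumour 7, 6.43 in tumour 3 and no detected signal in the other tumours. In tumour 5 Slc17a7 was at background, as it was in tumours 1, 2 and 4. Rbfox3 was detected in tumour 5 at 8.19, above its levels of 7.41, 7.14 and 6.57 in tumours 1, 2 and 4. Mbp was as low in tumour 5 as in tumour 2. Astrocyte genes had a smaller score SD of 0.40, but Gfap, the astrocyte filament gene, was 13.03 in tumour 1 and 9.59 in tumour 5, with 10.75 to 11.81 between. The share of normal brain in each piece was not measured, and its part in these values was not tested.

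Immature neuron (neuroblast) genes followed another order than mature ones. Their score was 0.78 in tumour 1 (7 of 8 genes), 0.52 in tumour 2 and -1.05 in tumour 4 (1 of 8), whereas batch 2 lay between -0.10 and 0.07. Dcx, the doublecortin gene of migrating neuroblasts, was 6.17 in tumour 4 and 10.34 in tumour 2. Dlx1, a transcription factor gene of interneuron precursors, was 8.98 in tumour 1, undetected in tumour 4 and at most 7.10 elsewhere.

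Genes of oxygen shortage and glycolysis were high in tumours 1 (0.81, 10 of 11 genes above the batch mean) and 4 (0.52, 9 of 11) and low in tumour 2 (-0.88, 0 of 11). Vegfa, the vessel growth factor gene, was 11.67 in tumour 1 and 11.66 in tumour 4, against 9.13 to 11.12 in the rest. Egln3, an oxygen-sensing hydroxylase gene, was 10.68 and 9.81 against 7.51 to 8.98. Ndrg1, a stress-induced gene, was 10.84 and 10.65, with tumour 3 close at 10.16 and tumour 2 at 7.32. Pgk1, a glycolytic enzyme gene, hardly varied (SD 0.26). Against the batch mean, feedback genes of the ERK pathway, which are induced by Ras signalling, were low in tumour 7 (-0.68, 0 of 11) and tumour 1 (-0.57, 2 of 11). They were high in tumour 5 (0.66, 11 of 11), but only within its batch. The mean level of the list was 10.40 in tumour 5, against 10.66 in tumour 2 and 10.38 in tumour 4. Etv4, an ETS factor gene, was 8.03 in tumour 7 and 10.10 to 11.36 elsewhere, and the phosphatase gene Dusp4 was 7.04 in tumour 7, 7.69 in tumour 1 and 10.25 in tumour 2.

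Markers of blood and of tissue outside the tumour varied as well. Neutrophil and monocyte genes scored 1.41 in tumour 5 and 0.93 in tumour 1 (5 of 5 genes above the batch mean in each) and -0.91 and -0.94 in tumours 4 and 6 (0 of 5 in each). These scores rank tumours only within a batch. The mean level of the list was 9.17 in tumour 5 and 5.31 in tumour 4, but 7.15 in tumour 1 lay close to 6.82 in tumour 6 and 7.28 in tumour 7. S100a8, a neutrophil calprotectin subunit gene, was 11.16 in tumour 5 and at most 8.17 elsewhere, and Lcn2, lipocalin of neutrophils and reactive astrocytes, was 11.38 in tumour 5 and undetected in tumour 4. Of 12 listed monocyte and granulocyte genes 11 had a named probe, and Ccr2, Mpo and Elane were among those that did not pass the detection filter, so that list rested on 5 genes. Of 12 listed choroid plexus genes 8 had a named probe and 4 were measured. Ttr and Clic6 (9.59) were highest in tumour 5, and the defining genes Kl, Folr1 and Otx2 were not among the 4 measured. Skeletal muscle genes (4 of 10 measured) were high in tumour 7, where Acta1, the muscle actin gene, was 10.29 against at most 6.85, and Mylpf was 9.23 against at most 5.78. Ckm, Myh1 and Myh4, which define mature muscle fibres, did not pass detection. Of 12 listed T and NK cell genes 8 had a named probe, and of these the chemokine gene Ccl5 alone passed the detection filter (4.86 in tumour 4, not detected, to 9.61 in tumour 5). The part of these tissues in other values was not tested.

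Pairs of lists were compared for varying together. Of 66 pairs among 12 lists, 2 had a Pearson correlation of 0.8 or more in size. Myelin and endothelial scores had r = -0.89 and Spearman rho = -0.93, with p = 0.0347 for r and 0.0208 for rho by an exact two-sided permutation test within batches (144 orders, smallest possible p 0.00694). The r was -0.78 without tumours 3 and 5, the farthest from the median on the myelin axis. Interferon and hypoxia scores had r = -0.84 and rho = -0.93 (exact permutation p = 0.174 and 0.139), and r = -0.82 without tumours 2 and 4. With 144 orders and 66 pairs, no single pair could have passed the adjustment, so the test says nothing on whether lists vary together. Adjusted over the 66 pairs, the lowest adjusted p was 0.866 for r and 0.968 for rho.

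Single genes were also set against the scores. In limma fits of every other gene on the score of a list with batch as a term, 0 genes passed at an adjusted p under 0.05 (0% of those tested) for the interferon, cartilage and bone, monocyte and granulocyte, and neuron scores. At an unadjusted p under 0.05 there were 886, 764, 461 and 351 genes, of 11001, 11006, 11007 and 11001 tested. The lowest p for the interferon score was that of Stmn3, a neuronal tubulin-binding protein gene (limma adjusted p = 0.133). Its slope was 1.97 ± 0.23 (SE) per SD of the score.

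As a description without a test, the 634 genes of SD 1 or more were sorted by correlation into 8 modules of 27 to 179 genes. The module of 66 genes led by Eif2s3y, Cck and Slc30a3 was the tightest (median correlation of a gene with the module mean 0.87). It held 8 of the 11 neuron genes and had medians of 1.37 in tumour 6, 1.12 in tumour 3 and -1.49 in tumour 5. A module of 128 genes led by Cytl1 held Acan, Ncmap, Dhh, Ngfr, Dct, Pmel, Mbp, Serpinh1 and Col11a1, with medians of 1.43 in tumour 4, 0.64 in tumour 3 and -1.39 in tumour 2. A module of 51 genes held Col2a1, Col9a1, Matn1, Snorc, Vegfa and Egln3 and was high in tumours 1 and 4 (1.22 and 1.01) and low in tumours 2 and 3 (-1.25 and -0.95). The module of 46 genes that was high in tumour 7 (1.67) mixed muscle genes (Acta1, Mylpf), globins and the chromosome 10 genes Lrig3, Mettl1 and Tsfm. With 7 tumours, genes of separate origin that peak in the same tumour fall in 1 module.

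What centring removed was measured as the difference between the batches. By limma, 535 of 11012 genes (4.86%) differed at an adjusted p under 0.05, 338 higher (3.07%) and 197 lower (1.79%) in batch 2. Thsd4, which encodes a matrix protein, was 8.88 to 9.42 in batch 1 and 5.55 to 6.08 in batch 2, a difference of -3.33 ± 0.23 (SE, limma adjusted p = 0.00373). Atp5e, an ATP synthase subunit gene, was 2.21 ± 0.22 (SE) higher in batch 2 (limma adjusted p = 0.0134), where it was detected on all 3 arrays, against 1 of 4 in batch 1. Chip, run and tumour cannot be told apart in this difference. The count rested on few arrays: it was 1 without tumour 6 or without tumour 7 and 1 with the authors' processed values, and without tumours 1 to 5 in turn it was 326, 188, 85, 151 and 48.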

How the data were processed

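Total RNA of 7 Type 2 tumours was read on single-colour Illumina mouse bead arrays, 1 tumour per array. Per the file headers, the deposited table gave, for 45281 probes, the mean signal intensity of the beads with its detection p-value, not normalized by the authors. The submitters' processing notes name BeadStudio without a version. Another deposited table contained the authors' processed values on a log2 scale for 38502 probes. Its method and centring are not given in the sources used here, so it served only as an alternative.

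The neqc function of limma 3.58.1 (R 4.3.3) was run on all 14 arrays: normexp correction based on detection p-values, an offset of 16, quantile normalization and log2. Probes were named from the platform annotation, in which 32034 carried 1 symbol, 13231 carried none and 16 with more than 1 were dropped. The reference gene table (GRCm38.p6) held the genes of 31976 probes. Of probes detected at p under 0.05 on at least 3 Type 2 arrays, the one with the highest mean stood for its gene. Values were centred within batch. Batch and list scores were tested with limma (lmFit, eBayes, Benjamini-Hochberg), pairs of lists by exact permutation within batches. The score fits were tested on simulated data, where they recovered 93% of changed genes at a slope of 1 and 100% at 2, with 5 false calls. Simulated noise was capped at the median SD of the genes. These rates therefore do not apply to genes of larger spread, and the counts of 0 do not show that no gene varied with a score. The labels number the tumours but do not say that each came from a separate mouse, and p-values reflect only the spread over these samples. Precision is limited by the number of arrays.

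The 7 tumours, the 39 gene lists and the named genes were chosen with earlier results of these data known. The rule named the 20 most and 8 least variable genes, the 12 brightest, the 4 furthest above and below in each tumour, up to 5 genes of each list, the genes of lowest p in each test and genes of the design, passing over predicted transcripts and leaving some out. Genes of the neighbour scan, and others named beside them, were chosen after their values were seen. Alternatives changed the background correction, scaling, detection filter, probe rule, threshold and tumours. Some of the design is left out of this account.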

Additional observations from a re-analysis of the deposited data

Results flagged for a closer look

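Of 162 values examined across the 7 tumours (127 named genes, 29 list scores and the medians of 6 gene runs, all as deviations from the batch mean), 20 had 1 tumour separated from the nearest other by more than 0.568 of the whole range, the critical value of Dixon's test for 7 values. Chance flags about 1 in 20 groups not chosen for their values, but most of these genes and all 6 runs were named for a large spread or for 1 outlying tumour, so their number cannot be set against that rate. They were 15 genes and 5 runs, and 0 of the 29 lists.

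Tumour 1 stood apart upwards for the chromosome 3 run from Phc3 to Atp11b (median 1.65) and its members Phc3 (1.89), Pik3ca (1.84), Fxr1 (1.95) and Zmat3 (1.70), and for the chromosome 15 run from Mtss1 to Adcy8 (1.44) with Mtss1 (3.58) and Sqle (1.52). Tumour 2 stood apart upwards for the run from Rassf8 to Klhl42 (1.75) and its member Fgfr1op2 (2.24), and downwards for Ndrg1 (-2.42). Tumour 5 was high for the run from Rasa2 to Armc8 (1.36). Tumour 7 was high for the run from Lrig3 to Agap2 (2.03), for Cdk4 (2.03) and Tspan31 (1.88) within it, and for the muscle gene Mylpf (2.36). Cytl1 (4.71) was high and Cxcl10 (-3.38) and Rpl41 (-0.23) were low in tumour 4, and Tppp3 (4.36) was high in tumour 3. The genes of a run are not independent of one another.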

How the results depend on the processing

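The count of genes with an SD of 1 or more (634) was 155 without background correction, 356 among genes detected on all 7 arrays (where another probe can stand for a gene) and 138 at an SD of 1.5, and 597 to 699 when each tumour was left out. With the authors' values, 594 of the 634 genes kept an SD of 1 or more. Genes detected on all arrays numbered 9149 to 9268 with 1 tumour left out. The batch comparison (535 genes) gave 1462 with median scaling, 1 with the authors' values and 1 to 326 with 1 tumour left out. The counts for the 4 list scores stayed at 0 in every setting that could be run. With genes detected on all 7 arrays only, the cartilage and bone and the monocyte and granulocyte scores had too few genes and were not run. Pairs of lists past 0.8 (2) numbered 3 to 9 with 1 tumour left out. Windows of neighbouring genes past the threshold (129; these settings were chosen after seeing the data) numbered 68 without background correction, 81 in windows of 10 genes and 73 to 126 with 1 tumour left out. The medians of the 6 named runs moved by less than the median SD of their genes in 91 of 91 settings. In 1576 of 1744 cases the SD of a named gene, and in 375 of 404 that of a list score, moved by less than its standard error. A change of sign was possible only for the run medians, since counts and SDs are never negative, and 0 of the 91 changed sign. Each run was followed in a tumour chosen for its high values, and leaving out a tumour of the other batch cannot move its median. The sign therefore says little about robustness. The causes of the changes between settings were not tested, beyond the fewer genes or tumours a setting leaves. Signal near background limits genes detected on few arrays. No paired analysis was possible because replicate numbers were given in accession order and only 1 group was analysed.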
